A study of Mus musculus with 6 samples.

Results

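The 10 genes described here control the passage of cells from the G1 phase into DNA synthesis. They are the D-type cyclin genes Ccnd1, Ccnd2 and Ccnd3, the E-type cyclin genes Ccne1 and Ccne2, the kinase genes Cdk2, Cdk4 and Cdk6, the retinoblastoma gene Rb1 and the transcription factor gene E2f1. They were chosen by symbol from the count tables of 6 mouse tumors, in which 31130 genes are listed, and each symbol was found once. All 10 had enough reads for the test between the groups, which covered 11240 genes. The filter asked for a level of at least about 7.41 CPM, counts scaled to a common library total, in any 3 libraries. Ccne1 met this level in 1 LC tumor, Ccne2 in 0 LC tumors and Ccnd3 in 2 LC tumors. These 3 genes would not have passed on the LC tumors alone, and each met the level in all 3 IP + LC tumors.

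In textbook terms, D-type cyclins are made in response to growth signals and bind the kinases CDK4 and CDK6. These complexes phosphorylate the retinoblastoma protein, which otherwise holds E2F transcription factors inactive. Released E2F1 switches on the E-type cyclins and the genes of DNA replication, and cyclin E with CDK2 phosphorylates the retinoblastoma protein further. CDK inhibitors of the INK4 and CIP/KIP families act against these kinases. Tumors often depend on these kinases and cyclins.

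The tumors came from female C57BL/6 mice aged 6 to 8 weeks, with the genotype given as WT. LLC (Lewis lung carcinoma) cells, which grow from a mouse tumor line and here carried green fluorescent protein, were injected into the left lung of every mouse on day 14. Mice of the LC group (3 tumors) had received saline by the oropharynx on day 0, as the scheme of the model shows, and mice of the IP + LC group (3 tumors) had received bleomycin at 2.0 mg/kg, which injures the lung and leads to fibrosis. Tumor tissue was collected on day 21. The comparison asks how lung cancer differs when it grows in a lung with interstitial pneumonia (IP). Each sample is a piece of whole tumor tissue of a single cell line in lung, so it holds carcinoma cells together with cells of the host. The labels do not state that each sample is a different animal, and p-values measure the spread between these samples.

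Each value is a count of unique molecular identifiers (UMIs), which stand for single transcript molecules. LC replicate 1 held 592733 UMIs and the other 5 tumors held 1336919 to 1631066. Levels are given as CPM with TMM scaling factors, and 3 UMIs, taken as the limit of detection, corresponded to 5.17 CPM in LC replicate 1 and to 1.75 to 2.54 CPM in the others. LC replicate 1 stood apart from its group. On log2 CPM over the tested genes, its Pearson's r to the other LC tumors was 0.799 and 0.840, while LC replicates 2 and 3 reached 0.962 with each other. Its highest r to an IP + LC tumor was 0.822, which lies between its values for the other LC tumors. The fold changes of the 10 genes and the counts called in the pathway lists are therefore given with and without this tumor. Over all tested genes, an adjusted p-value below 0.1 in edgeR's quasi-likelihood test was found for 36.4%, with 16.8% higher and 19.6% lower in the IP + LC group. Of the genes called, 46.1% were higher, against 58.3% when library size alone was used for scaling. The level of 0.1 is the limit for every call below.

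Of the 10 genes, 5 rose in the IP + LC group and 0 fell, beside 16.8% and 19.6% of all tested genes. The genes that rose were Ccnd1, Ccne1, Cdk6, E2f1 and Cdk2. The other 5 genes were Ccnd2, Ccnd3, Ccne2, Cdk4 and Rb1, which did not pass the test. The median log2 fold change of the 10 genes was 0.88, beside 0.02 for all tested genes. With LC replicate 1 left out, 6 of the 10 genes were called higher, the sixth being Cdk4, beside 28.3% of all tested genes in that setting. The count was 3 without LC replicate 2 and also 3 without IP + LC replicate 2, beside 8.81% and 7.61% of all tested genes.

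**Figure D1:**
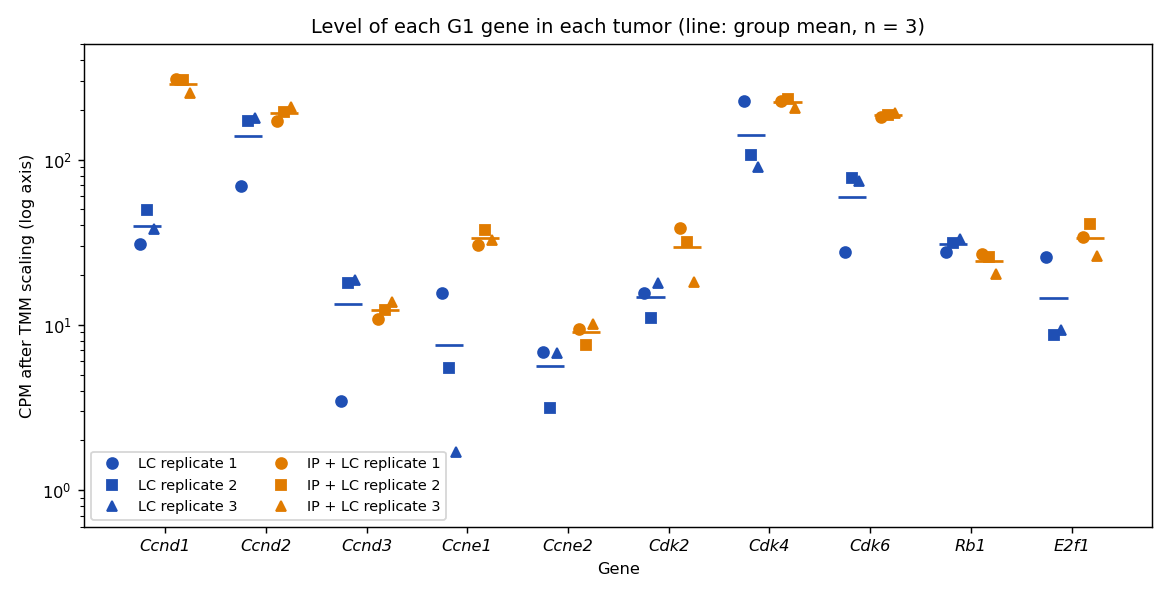
Level of each of the 10 genes in each tumor, in CPM after TMM scaling on a log axis, with LC tumors in blue, IP + LC tumors in orange and a line at each group mean (n = 3). The largest gap between the groups is that of Ccnd1, at 31.0 to 49.4 CPM in LC and 253 to 309 CPM in IP + LC, while Ccnd2, Ccnd3 and Cdk4 overlap between the groups.

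The promoters of 3 kinase genes are shown because their letters hold the motifs of the factors that act in this pathway. The sequences are from RefSeq on GRCm38.p6 and run from 250 bases before to 50 bases after an annotated start site, 5′ to 3′ on the strand of the gene. Entries were found for 6 of the 10 genes, and Ccnd1, Ccnd2, Ccne2 and Rb1 had none. Capitals mark the E-box CACGTG, to which Myc proteins bind, and the E2F words TTTNGCG and GCGGGAAA, searched on both strands.
Cdk4, chr10:127063285-127063584, plus strand: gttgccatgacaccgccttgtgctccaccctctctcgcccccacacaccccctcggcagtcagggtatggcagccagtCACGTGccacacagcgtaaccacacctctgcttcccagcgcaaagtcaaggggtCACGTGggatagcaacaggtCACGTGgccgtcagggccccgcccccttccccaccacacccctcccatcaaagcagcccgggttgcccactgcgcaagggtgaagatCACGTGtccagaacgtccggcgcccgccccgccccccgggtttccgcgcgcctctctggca
Cdk6, chr5:3343643-3343942, plus strand: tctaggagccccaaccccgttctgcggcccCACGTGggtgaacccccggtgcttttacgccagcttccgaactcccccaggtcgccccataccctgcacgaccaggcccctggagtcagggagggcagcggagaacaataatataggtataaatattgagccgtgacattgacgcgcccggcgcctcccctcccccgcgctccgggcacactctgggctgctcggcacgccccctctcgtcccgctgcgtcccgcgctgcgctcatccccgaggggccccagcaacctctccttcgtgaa
Cdk2, chr10:128705002-128705301, minus strand: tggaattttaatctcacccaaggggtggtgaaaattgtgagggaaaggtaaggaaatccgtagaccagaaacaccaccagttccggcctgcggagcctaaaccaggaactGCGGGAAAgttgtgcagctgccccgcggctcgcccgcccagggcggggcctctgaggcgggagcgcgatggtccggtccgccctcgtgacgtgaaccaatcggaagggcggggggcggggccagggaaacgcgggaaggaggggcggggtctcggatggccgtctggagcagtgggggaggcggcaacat
The Cdk4 window held 4 E-boxes, which begin 172, 118, 98 and 11 bases before the start site. The Cdk6 window held 1 E-box, 220 bases before the start site, and this start site lies 2408 bases inside the gene as GENCODE annotates it. The Cdk2 window held 1 E2F word, GCGGGAAA, 140 bases before the start site. Over all 32851 promoters of this length, 7.15% had an E-box and 5.17% had an E2F word. The entries of Ccnd3, Ccne1 and E2f1 had neither. The start site used for E2f1 lies 466 bases inside the annotated gene, so its window is not the region before the gene. The AP-1 word TGANTCA, found in 7.81% of all promoters, was in 0 of the 7 windows of these genes, and the GC box GGGCGG, found in 35.7%, was in 6 of the 7. These matches describe letters only.

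Ccnd1, which encodes cyclin D1, the classical sensor of growth signals, had the largest fitted rise of the 10 genes with all 6 tumors, while Ccne1 had the largest without LC replicate 1 and in limma voom. It lies on chromosome 7 of GRCm38 from 144929931 to 144939925 on the minus strand (ENSMUSG00000070348). The LC tumors had 18, 63 and 45 UMIs, or 31.0, 49.4 and 38.1 CPM, and the IP + LC tumors had 426, 517 and 349 UMIs, or 309, 302 and 253 CPM. Every IP + LC tumor was far above every LC tumor. The group means were 39.5 ± 9.26 and 288 ± 30.2 CPM (SD, n = 3), a log2 fold change of 2.84 (SE 0.24, edgeR adjusted p = 0.000565). Without LC replicate 1 it was 2.72 (edgeR adjusted p = 5.60e-08), and over the 16 alternatives it lay between 2.62 and 3.04 and stayed called. The exons of Ccnd1 are overlapped over 23.4% of their length by LTO1 on the opposite strand, and the use of the strand in counting is not given in the sources used here. LTO1 had 7 to 32 UMIs in the LC tumors and 16 to 45 in the IP + LC tumors (log2 fold change -0.18, edgeR adjusted p = 0.753).

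Ccnd2 and Ccnd3 encode the sister cyclins D2 and D3, which many blood and immune cells also use. Ccnd2 (ENSMUSG00000000184, chromosome 6, 127125162 to 127152193, minus strand) had 68.9, 170.0 and 177 CPM in the LC tumors and 170.4, 194 and 207 CPM in the IP + LC tumors. LC replicate 1 was low, and the other 5 tumors lay close together. The log2 fold change of Ccnd2 was 0.44 with a 95% interval from -0.29 to 1.16 (edgeR adjusted p = 0.343), and 0.15 without LC replicate 1 (edgeR adjusted p = 0.412). Ccnd3 (ENSMUSG00000034165, chromosome 17, 47505051 to 47599691, plus strand) rested on few molecules, with 2, 23 and 22 UMIs in LC and 15, 21 and 19 UMIs in IP + LC. Its levels were 3.44, 18.0 and 18.6 CPM against 10.9, 12.3 and 13.8 CPM, so that the IP + LC tumors lay between LC replicate 1 and the other LC tumors. The log2 fold change was -0.26 with a 95% interval from -1.23 to 0.70 (edgeR adjusted p = 0.681). It was -0.56 without LC replicate 1 (edgeR adjusted p = 0.137) and -0.05 without LC replicate 2 (edgeR adjusted p = 0.961). Of the longest Ccnd3 transcript, 18.6% matches the pseudogene Ccnd3-ps nearly identically, so its UMIs are less certain.

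The shares of Ccnd1 and Ccnd2 among the D-type cyclin transcripts lay far apart in the groups. A share does not depend on how the libraries are scaled. The 3 shares of a tumor add up to the whole, so they are not independent of each other. Ccnd1 gave 30.0%, 20.8% and 16.3% of the Ccnd1, Ccnd2 and Ccnd3 UMIs in the LC tumors, and 63.0%, 59.4% and 53.4% in the IP + LC tumors. The exact (Clopper-Pearson) 95% intervals ran from 12.1% to 43.2% in LC and from 49.5% to 66.7% in IP + LC, and they cover counting error only. Ccnd2 gave 66.7%, 71.6% and 75.7% in LC and 34.8%, 38.2% and 43.6% in IP + LC. The level of Ccnd2 itself was not lower in IP + LC (log2 fold change 0.44, edgeR adjusted p = 0.343). Ccnd3 gave 3.33%, 7.59% and 7.97% in LC and 2.22%, 2.41% and 2.91% in IP + LC. The lowest LC share of Ccnd3 rests on 2 of 60 UMIs, under the limit of detection, with an interval from 0.406% to 11.5% that covers all the IP + LC values. For each of these 3 shares the tumors' values did not overlap between the groups, and the exact two-sided permutation test gave p = 0.1, the smallest value that 3 tumors against 3 allow (0.125 after Benjamini-Hochberg adjustment over 5 shares). The mean share of Ccnd1 was higher in IP + LC by 36.2 percentage points, and by 33.2 to 40.1 points when each tumor was left out in turn.

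**Figure D2:**
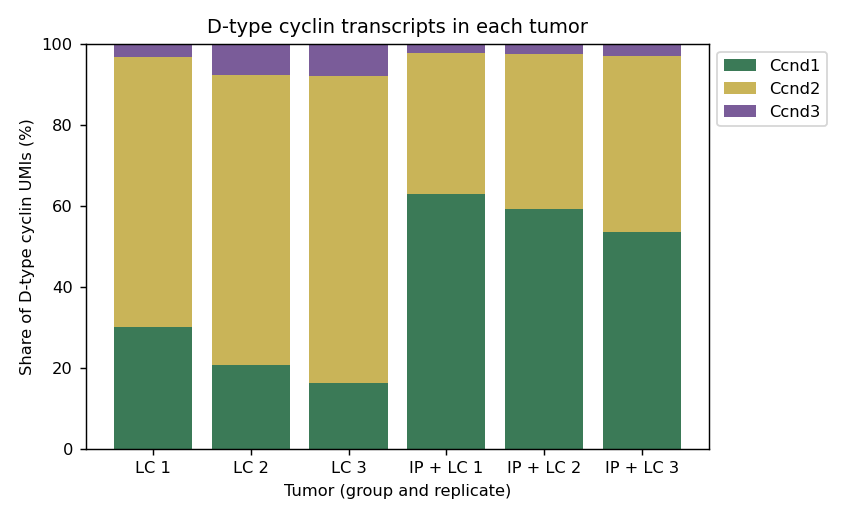
Share of Ccnd1, Ccnd2 and Ccnd3 among the D-type cyclin UMIs of each tumor, in percent, as stacked bars that add up to the whole. Ccnd1 takes 16.3% to 30.0% in the LC tumors and 53.4% to 63.0% in the IP + LC tumors.

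Ccne1 and Ccne2 encode cyclins E1 and E2, the partners of CDK2 at the entry into S phase and themselves targets of E2F. Ccne1 (ENSMUSG00000002068, chromosome 7, 38097984 to 38107534, minus strand) had 9, 7 and 2 UMIs in the LC tumors and 42, 64 and 45 UMIs in the IP + LC tumors. Its levels were 15.5, 5.48 and 1.69 CPM in LC, the last below the limit of detection, and 30.5, 37.4 and 32.7 CPM in IP + LC. All IP + LC tumors were above all LC tumors, and LC replicate 1 was the highest of its group. The log2 fold change of Ccne1 was 2.43 (SE 0.49, edgeR adjusted p = 0.00787). It became 3.18 without LC replicate 1 (edgeR adjusted p = 1.25e-05) and 1.87 without LC replicate 3. Ccne2 (ENSMUSG00000028212, chromosome 4, 11191351 to 11204779, plus strand) was rare in every tumor, with 4, 4 and 8 UMIs in LC and 13, 13 and 14 UMIs in IP + LC. Its levels were 6.89, 3.13 and 6.78 CPM against 9.43, 7.59 and 10.2 CPM, with no overlap. The log2 fold change was 0.75 with a 95% interval from -0.18 to 1.67 (edgeR adjusted p = 0.207). It was 0.87 without LC replicate 1 (edgeR adjusted p = 0.136) and 0.39 without LC replicate 2 (edgeR adjusted p = 0.589), so that a change of this size could not be told from the spread at this depth. Ints8, on the opposite strand, overlaps 17.4% of the exons of Ccne2. Ccne1 made up 69.2% and 63.6% of the E-type cyclin UMIs in LC replicates 1 and 2 and 2 of 10 UMIs in LC replicate 3, out of only 10 to 13 UMIs per LC tumor, and 76.4%, 83.1% and 76.3% in IP + LC (exact permutation p = 0.1, adjusted 0.125).

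Cdk4 and Cdk6 encode the kinases that pair with the D-type cyclins, and the data of both differed in LC replicate 1 in opposite directions. Cdk6 (ENSMUSG00000040274, chromosome 5, 3341485 to 3531008, plus strand) had 16, 98 and 88 UMIs in LC and 251, 320 and 262 UMIs in IP + LC. Its levels were 27.6, 76.8 and 74.6 CPM against 182, 187 and 190.2 CPM, and the IP + LC tumors were nearly equal to each other and above every LC tumor. Its log2 fold change was 1.60 (SE 0.32, edgeR adjusted p = 0.00783), and 1.31 without LC replicate 1 (edgeR adjusted p = 4.90e-06). Cdk4 (ENSMUSG00000006728, chromosome 10, 127063534 to 127067920, plus strand) had 131, 135 and 107 UMIs in LC and 312, 399 and 282 UMIs in IP + LC. Its levels were 226, 106 and 90.7 CPM in LC and 226, 233 and 205 CPM in IP + LC. LC replicate 1 thus had the Cdk4 level of the IP + LC tumors, and the other LC tumors were lower. The log2 fold change of Cdk4 was 0.68 with a 95% interval from -0.06 to 1.42 (edgeR adjusted p = 0.157). Without LC replicate 1 it was 1.18 and was called higher (edgeR adjusted p = 1.75e-05). Tspan31, on the opposite strand, overlaps 19.7% of the exons of Cdk4 and had 0 to 5 UMIs in any tumor.

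The balance of Cdk4 and Cdk6 did not separate the groups. Cdk4 gave 89.1%, 57.9% and 54.9% of the UMIs of both genes in LC and 55.4%, 55.5% and 51.8% in IP + LC. LC replicate 1 lay apart from the other 5 tumors, which ran from 51.8% to 57.9%. The means differed by -13.1 percentage points (exact permutation p = 0.3), and by -2.16 points without LC replicate 1.

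Cdk2 encodes the kinase that works with cyclin E and later with cyclin A. It lies on chromosome 10 from 128697939 to 128705031 on the minus strand (ENSMUSG00000025358), and had 9, 14 and 21 UMIs in LC and 53, 54 and 25 UMIs in IP + LC. In CPM, these were 15.5, 11.0 and 17.8 against 38.4, 31.5 and 18.2. IP + LC replicate 3 was barely above the highest LC tumor. Cdk2 rose by 1.01 on the log2 scale (SE 0.35, edgeR adjusted p = 0.0612). Without LC replicate 1 the value was 1.05 (edgeR adjusted p = 0.0202). This call was lost without LC replicate 2 (0.79, edgeR adjusted p = 0.225), without IP + LC replicate 1 (0.80, adjusted p = 0.193) and without IP + LC replicate 2 (0.97, adjusted p = 0.173). The call was also lost in DESeq2 (0.99, adjusted p = 0.107) and with the replicate number as a block (0.94, edgeR adjusted p = 0.115).

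Rb1 and E2f1 stand for the brake and the accelerator that the cyclin-dependent kinases act on. Rb1 (ENSMUSG00000022105, chromosome 14, 73183673 to 73325822, minus strand) had 27.6, 31.3 and 33.0 CPM in LC and 26.8, 25.7 and 20.3 CPM in IP + LC, from 16 to 44 UMIs per tumor. Lpar6 and Rcbtb2 overlap 14.9% of its exons on the opposite strand. The IP + LC tumors lay below the LC tumors by a small margin. The log2 fold change was -0.35 with a 95% interval from -0.85 to 0.16 (edgeR adjusted p = 0.280), and it was -0.39 without LC replicate 1 (edgeR adjusted p = 0.177). It was -0.21 without IP + LC replicate 3 (edgeR adjusted p = 0.592) and -0.03 after thinning to the smallest library (edgeR adjusted p = 0.957). Rb1 was not called in any of the 16 alternatives. E2f1 (ENSMUSG00000027490, chromosome 2, 154559407 to 154569892, minus strand) had 15, 11 and 11 UMIs in LC and 47, 70 and 36 UMIs in IP + LC. Its levels were 25.8, 8.62 and 9.32 CPM against 34.1, 40.9 and 26.1 CPM, and LC replicate 1 came close to the lowest IP + LC tumor. E2f1 rose by 1.40 on the log2 scale (SE 0.40, edgeR adjusted p = 0.0306). Without LC replicate 1 the rise was 1.92 (edgeR adjusted p = 0.000162). The call was lost without LC replicate 2 (1.099, edgeR adjusted p = 0.143), LC replicate 3 (1.16, adjusted p = 0.109) or IP + LC replicate 2 (1.22, adjusted p = 0.136).

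Among the 10 genes, the groups did not overlap in 6 with IP + LC above and in 1 with IP + LC below. Over all tested genes these shares were 21.6% and 21.5%, together 43.1%. The summed level of the 10 genes was 448, 479 and 468 CPM in LC and 1038, 1071 and 977 CPM in IP + LC.

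**Figure D3:**
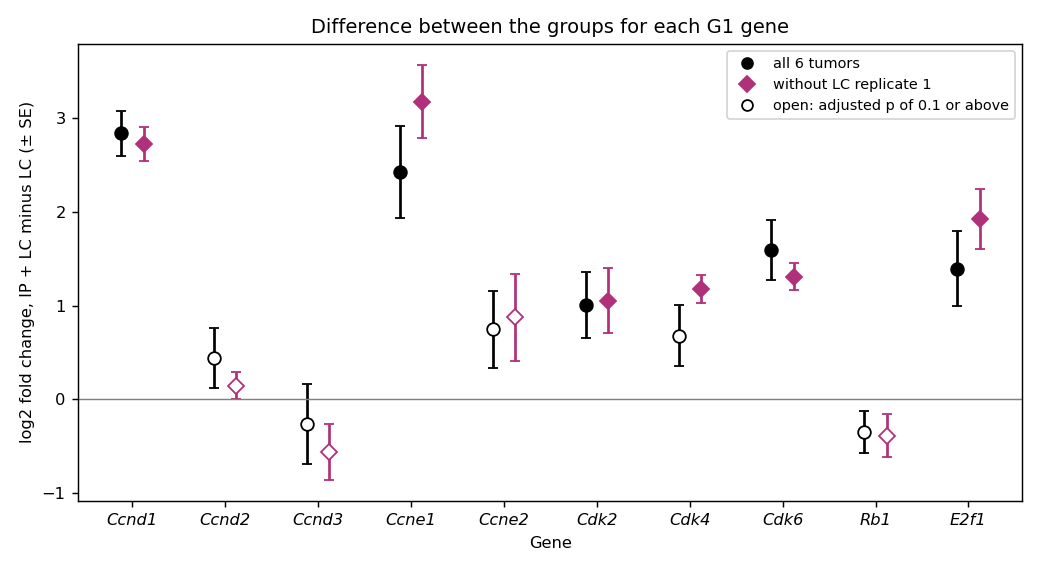
Log2 fold change of each gene, IP + LC minus LC, with its standard error from edgeR, for all 6 tumors (black) and without LC replicate 1 (pink). Filled points have an adjusted p-value below 0.1. Cdk4 moves from 0.68 and open to 1.18 and filled, and Ccnd1 stays at 2.84 and 2.72.

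LC replicate 1 differed from the other LC tumors in both directions. Against the mean log2 CPM of LC replicates 2 and 3, it was higher for Ccne1 (log2 difference 1.82), E2f1 (1.38), Cdk4 (1.19), Ccne2 (0.43) and Cdk2 (0.13). It was lower for Ccnd3 (-1.98), Cdk6 (-1.41), Ccnd2 (-1.31), Ccnd1 (-0.47) and Rb1 (-0.21). The values of Ccnd3 and Ccne1 are imprecise, since each rests on 2 UMIs, in LC replicates 1 and 3, which is below the limit of detection. The genes that were higher had longest annotated transcripts of 2000 to 3264 nt, and those that were lower had 3740 to 11525 nt. The longest annotated transcript of Ccnd3 has 2 exons and that of Cdk2 has 1, while the others have 5 to 27. Which transcripts these tumors held was not determined, so this split rests on the annotation. Over the 11240 tested genes, the median of the same difference was 0.33 in the 2810 genes with the shortest transcripts (up to 2147 nt) and -0.58 in the 2810 genes with the longest (from 4877 nt). The part of transcript length in the values of this tumor was not tested. Between the groups, the medians of the log2 fold change were -0.10, 0.04, 0.08 and 0.04 in 4 bins of nearly equal number from the shortest to the longest transcripts.

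**Figure D4:**
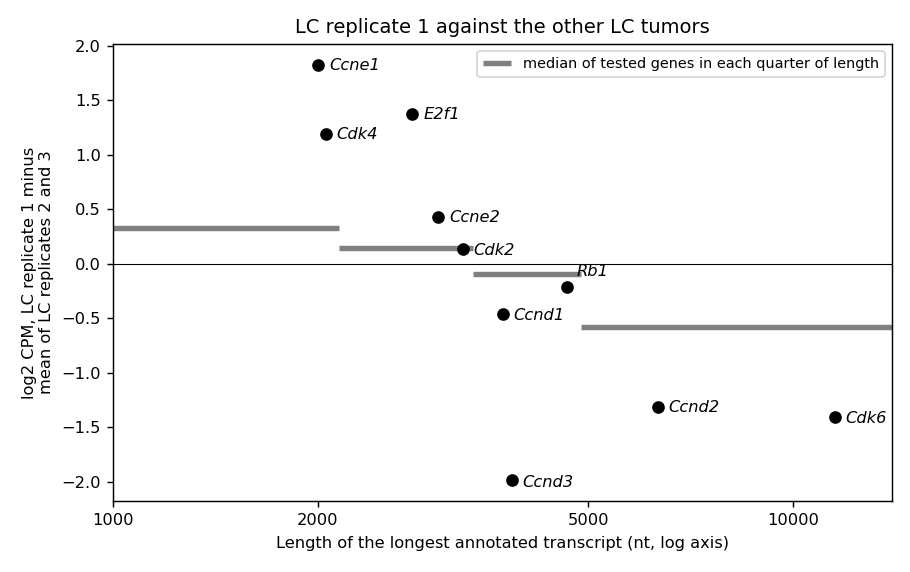
Log2 CPM of LC replicate 1 minus the mean of LC replicates 2 and 3 against the length of the longest annotated transcript (nt, log axis), for the 10 genes (points) and as the median of all tested genes in each of 4 nearly equal bins of length (grey lines, of which the outer ones go on beyond the axis). The 5 genes above 0 have longest annotated transcripts of at most 3264 nt and the 5 genes below 0 have at least 3740 nt. The transcripts present in these tumors may be shorter, since the longest annotated ones of Ccnd3 and Cdk2 have only 2 exons and 1 exon.

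The other genes of the pathway were taken from lists for each step. The CDK inhibitors, which hold the G1 kinases back, had 6 tested genes, of which 0 rose and 3 fell, with a median log2 fold change of -0.32. The median was -0.56 without LC replicate 1 and 0.04 with no filter on low counts. Cdkn1c (p57) fell from 48.7 to 10.5 CPM (log2 fold change -2.29, edgeR adjusted p = 0.00920). Cdkn2b (p15) fell by 1.06 on the log2 scale (adjusted p = 0.0360) and Cdkn2c (p18) by 0.57 (adjusted p = 0.0995). Cdkn1a (p21), a target of p53, was just above the limit, with a log2 fold change of 0.70 (edgeR adjusted p = 0.1) and all IP + LC tumors above all LC tumors. Cdkn1b (p27) and Cdkn2d (p19) had log2 fold changes of -0.03 and -0.06. Cdkn2a, which encodes p16 and p19ARF, had 0 UMIs in 5 tumors and 2 UMIs in IP + LC replicate 3, below the limit of detection everywhere, and was not tested. The share of all tested genes called lower was 19.6%. With LC replicate 1 left out, 1 inhibitor was called higher and 4 lower, beside 28.3% and 28.7% of all tested genes. Without IP + LC replicate 1 or 2, only 1 was lower and 0 were higher, beside 13.4% and 11.6% of all tested genes lower. Without LC replicate 3, 1 was higher and 1 lower, beside 11.2% and 15.2% of all tested genes.

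Among the other pocket proteins, E2F and DP factors, 5 of 10 tested genes rose and 1 fell (median 1.06), beside 16.8% and 19.6% of all tested genes. Of the 5 that rose, E2f3 and E2f7 were under the filter level in all LC tumors and were tested through the IP + LC group. The atypical repressor gene E2f7 rose from 2, 6 and 0 UMIs in LC to 25, 37 and 27 UMIs in IP + LC (log2 fold change 2.87, edgeR adjusted p = 0.00748). The activator gene E2f3 rose by 1.91 (adjusted p = 0.00424), the E2F partner gene Tfdp1 by 1.38 (adjusted p = 0.00497) and the pocket protein gene Rbl1 by 1.23 (adjusted p = 0.0295) on the log2 scale. The gene that fell was Tfdp2 (-0.65, edgeR adjusted p = 0.0989), which is named here after its value was seen. When LC replicate 1 was left out, 7 rose and 1 fell, beside 28.3% and 28.7% of all tested genes. Without LC replicate 2 or without IP + LC replicate 1, 3 rose and 0 fell, beside 8.81% and 9.25% of all tested genes higher.

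Regulators of the activity and turnover of G1 complexes had 3 of 14 tested genes higher and 0 lower (median 0.25), a share close to the 16.8% of all tested genes. They were Skp2, which marks the inhibitor p27 for destruction (log2 fold change 1.95, edgeR adjusted p = 0.00180), the kinase subunit gene Cks2 (1.29, adjusted p = 0.0725) and the phosphatase gene Cdc25a, which activates CDK2 (1.00, adjusted p = 0.0270). Among inducers of D-type cyclins, 3 of 11 tested genes rose and 1 fell (median 0.28). This median was not stable, at 0.0083 and 0.07 when LC replicates 1 and 3 were left out in turn, 0.08 without IP + LC replicate 1, -0.03 after thinning and -0.16 with at least 10 UMIs in every library. Fosl1, a subunit of the factor AP-1, rose from 10, 4 and 3 UMIs in LC to 94, 132 and 49 UMIs in IP + LC (log2 fold change 3.34, edgeR adjusted p = 0.00395). Myc rose from 5, 14 and 10 UMIs to 71, 101 and 57 UMIs (log2 fold change 2.41, edgeR adjusted p = 0.000945), with no overlap between the groups. Stat3 rose by 0.86 (adjusted p = 0.0239), and the early response gene Egr1 fell by 0.85 (adjusted p = 0.0338) on the log2 scale. Skp2, Cks2, Fosl1 and Myc were under the filter level in at least 1 LC tumor and were tested only because IP + LC tumors met it. Without LC replicate 1, 6 regulators rose and 1 fell, and 3 inducers rose and 3 fell, beside 28.3% and 28.7% of all tested genes. Only 1 regulator rose without LC replicate 2 (8.81% of all), and 0 were called among genes with at least 10 UMIs in every library (19.4% of all higher). The inducers that rose numbered 3 with any tumor left out, where 7.61% to 28.3% of all tested genes were higher.

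The S phase genes that E2F is known to drive rose in 17 of 23 tested cases and fell in 0, beside 16.8% and 19.6% of all tested genes, with a median log2 fold change of 1.46. Rrm2, the regulated subunit of the enzyme that makes deoxynucleotides, rose by 2.34 on the log2 scale (edgeR adjusted p = 0.00854). The values were 2.16 for Uhrf1, which keeps DNA methylation through replication, 2.12 for the helicase cofactor gene Cdc45 and 1.99 for the helicase subunit gene Mcm2. The G2/M cyclins, kinases and regulators rose in 12 of 14 tested cases and fell in 0 (median 1.94), beside the same shares. Top2a, the topoisomerase of dividing cells, rose by 2.96 (adjusted p = 0.00160), the proliferation marker Mki67 by 2.63 (adjusted p = 0.000821), the cyclin F gene Ccnf by 2.36 (adjusted p = 0.0202) and the mitotic factor gene Foxm1 by 2.15 (adjusted p = 0.0522) on the log2 scale in edgeR. Of the genes that rose, 5 of 17 and 8 of 12 were under the filter level in at least 1 LC tumor. Uhrf1, Cdc45, Ccnf and Foxm1 were among them, and each was tested only because IP + LC tumors met that level. Both counts depended on single tumors. Without LC replicate 1, the medians were 2.12 and 3.14, and 22 of 23 and 14 of 14 tested genes were higher, beside 28.3% of all tested genes. Without LC replicate 2 they were 7 of 23 and 4 of 14 (8.81% of all), and without IP + LC replicate 2 they were 7 of 23 and 5 of 14 (7.61% of all). The S phase counts without LC replicate 3, IP + LC replicate 1 and IP + LC replicate 3 were 10, 9 and 11, and the G2/M count was 5 in each, beside 11.2%, 9.25% and 11.1% of all tested genes higher.

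**Figure D5:**
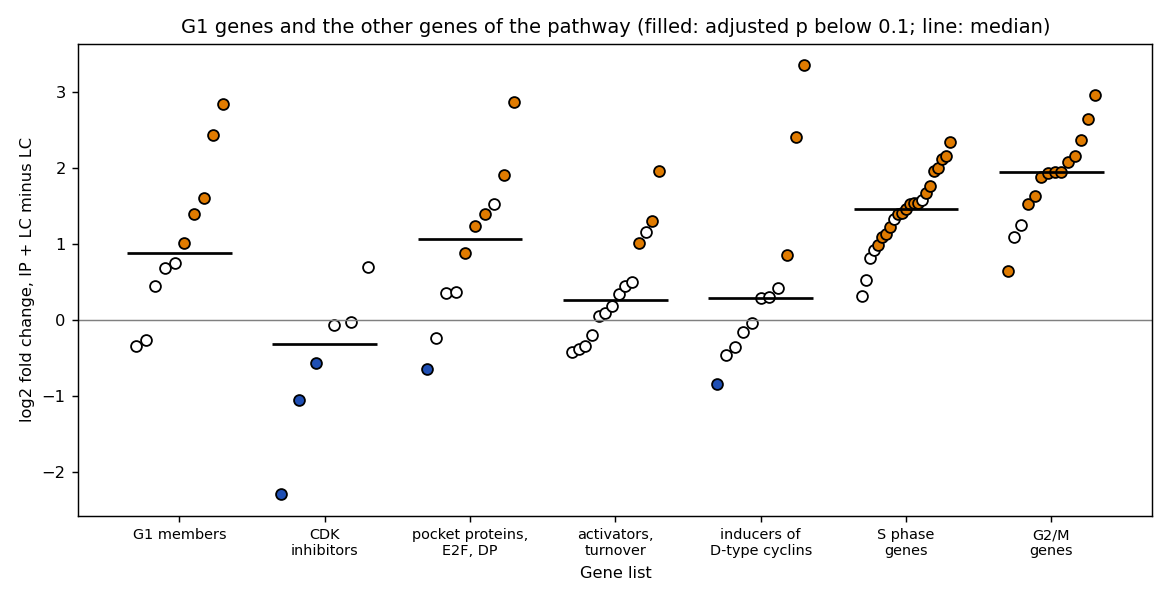
Log2 fold change, IP + LC minus LC, of the 10 G1 genes and of the tested genes in each pathway list, with each gene a point and a line at the median of the list. Filled points have an adjusted p-value below 0.1 in edgeR. The medians run from -0.32 for CDK inhibitors to 1.94 for G2/M genes.

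The summed levels of both lists in LC replicate 1 lay between those of the groups. LC replicate 1 was above the other LC tumors in all 23 S phase and all 14 G2/M genes tested, and it was also below all IP + LC tumors in 14 and 10 of them and above all IP + LC tumors in 3 and 1 of them. The summed level of the S phase list was 1467 CPM in LC replicate 1, 503 and 425 CPM in LC replicates 2 and 3, and 1763 to 1974 CPM in IP + LC. For the G2/M list it was 830.0 CPM in LC replicate 1, 164 and 157 CPM in the other LC tumors, and 1199 to 1433 CPM in IP + LC. In Cdk4, Ccne1, Ccne2 and E2f1, LC replicate 1 was likewise the highest LC tumor. In Ccnd1, Ccnd2, Ccnd3, Cdk6 and Rb1 it was the lowest.

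Markers of other cells in the tumor tissue moved with the groups too. Of 13 marker lists, the summed level in all IP + LC tumors was below all LC tumors in 10 and above in 0. Among all tested genes, taken singly, 21.5% had all IP + LC tumors below all LC tumors and 21.6% had them above. The counts of marker genes below stand beside 16.8% of all tested genes called higher and 19.6% called lower. Type 2 alveolar markers fell in 7 of 8 tested genes and summed to 35991 to 45092 CPM in LC and 6568 to 11833 CPM in IP + LC. Airway markers fell in 6 of 6, from 49247 to 58156 CPM in LC down to 3361 to 7225 CPM in IP + LC, and endothelial markers fell in 8 of 8, from 1269 to 2114 CPM down to 449 to 544 CPM. The most abundant of these, Sftpc and Scgb1a1, had 27466 and 41458 CPM in the LC group and 6347 and 4454 CPM in the IP + LC group, in tissue whose label names lung cancer cells. The other lists whose sums were lower in every IP + LC tumor were those of type 1 alveolar (5 of 6 tested genes fell), general epithelial (5 of 6), smooth muscle (5 of 5), alveolar macrophage (6 of 6), neutrophil (3 of 5) and B cells (4 of 5), and of macrophages, in which 2 of 7 genes rose and 1 fell. The lower macrophage sum rested on Lyz2 alone. Without Lyz2, the other 6 macrophage genes summed to 1772, 646 and 497 CPM in LC and 1668, 2067 and 1877 CPM in IP + LC, so the groups overlapped. The sums overlapped for fibroblast markers (2 of 6 rose and 3 fell), erythroid markers (4 of 4 fell) and T cell markers (0 of 5 called), the last at 89.5 to 121 CPM in LC and 81.9 to 166 CPM in IP + LC. The part of these cells in the levels of the 10 genes was not tested. In such bulk tissue, fewer cells of a type and less RNA per cell cannot be told apart.

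The tested genes whose pattern over the 6 tumors was most like that of each G1 gene were found by Pearson's r of log2 CPM, which in these data is set in large part by the difference between the groups and by LC replicate 1. For Cdk4 they were Esd and Pcna, the replication clamp (r = 0.999 for each), and for Ccne1 they were Cfl1 and Arpc1b (r = 0.999 and 0.998). For Ccnd1 they were Sf3b3 and Cgas (0.999 and 0.998), for Ccnd2 Usp37 and Mllt10 (1.000 and 0.998), for Ccnd3 Strbp and Hip1 (0.999 and 0.997) and for Cdk6 Fhl3 and Poldip3 (0.999 and 0.998). For Ccne2 they were Pias4 and Tmem167b (0.996 and 0.989), for Cdk2 Rai14 and Acvr1 (0.984 and 0.978) and for Rb1 Tbc1d17 and Abcb1a (0.995 and 0.988). For E2f1 they were 2810408I11Rik and Pla2g4a (0.997 for each). An r above 0.95 was found among 11230 genes for 642 with Cdk4, 573 with Ccne1, 476 with E2f1, 398 with Ccnd2, 324 with Ccnd1, 313 with Ccnd3 and 302 with Cdk6, and for 29 with Rb1, 22 with Ccne2 and 19 with Cdk2. The first places among the many near neighbours of the first 7 genes therefore carry little weight.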

How the data were processed

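Bulk RNA barcoding and sequencing libraries of 3 LC and 3 IP + LC tumors were used. The authors extracted UMIs with UMI-tools 1.1.1, trimmed reads with Trim Galore 0.6.7, aligned them to GRCm38 with HISAT2 2.2.1, assigned them to genes with featureCounts 2.0.1 and counted the different UMIs per gene. The deposited values are these counts, without normalization. The annotation release and the strand setting are not given in the sources used here. UMIs were read at the 3′ end, and the intervals of shares cover counting error only, while those of fold changes come from the edgeR fit over tumors.

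Counts were analysed in R 4.3.3 with edgeR 4.0.16: filterByExpr (minimum count 10, minimum total 15), TMM scaling, the quasi-likelihood test of IP + LC against LC without a block, and Benjamini-Hochberg adjustment over 11240 genes with a limit of 0.1. Alternatives were other scalings, other filters, DESeq2 1.42.0, limma 3.58.1 voom, a replicate block, thinning to 592733 UMIs (seed 1), a limit of 0.05 and each tumor left out. Tests were tried on simulated data for the same comparison, in which 187 of 10923 tested genes carried a log2 change of 2. Of these, 182 were found, with 26 false calls. The data differ from this setting, with 36.4% of tested genes called and log2 fold changes such as 1.01 for Cdk2 and 1.40 for E2f1. The share found therefore does not carry over to the 10 genes. Positions and transcript lengths were from GENCODE M21 on GRCm38, and copies were searched with blastn 2.17.0+ (at least 81 nt and 95% identity). Promoters were from RefSeq on GRCm38.p6. All 10 members are named. In pathway lists, the up to 4 called genes with the largest change are named if every tumor of the higher group held 10 UMIs or more, in marker lists genes of the highest level, and for each member the 2 genes most alike. The members and lists were chosen with earlier results of these data known, and the motifs and the grouping by transcript length after the data were seen.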

Additional observations from a re-analysis of the deposited data

How the results depend on the processing

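None of the 10 genes changed direction in any alternative that tested it (16 for 6 of them, 15 for Ccne1 and Cdk2, 14 for Ccnd3 and Ccne2), and Ccnd1, Ccne1 and Cdk6 stayed called in each that tested them. Cdk2 was no longer called in DESeq2 (0.99), with the replicate block (0.94), at a limit of 0.05 (1.01) or without some tumors (0.79 to 1.28 over the tumors left out), and E2f1 without some tumors (1.099 to 1.92). Cdk4 became called with no filter (0.79), with at least 10 UMIs in every library (0.71), in limma voom (0.80) and without LC replicate 1 (0.43 to 1.18 over the tumors left out). Correlations between the deviations of same-numbered tumors were 0.02, -0.11 and 0.10, and those of differently numbered tumors ran from -0.13 to 0.12. With 3 tumors per group, this check could neither show nor exclude a pairing by replicate number. The replicate block changed no other call among the 10 genes and gave 3410 calls in place of 4088.

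Thinning to the smallest library gave 2352 calls, 1014 higher and 1338 lower, in place of 4088, 1885 and 2203. With each tumor left out, calls ranged from 2265 to 6691 (897 to 3324 higher and 1368 to 3367 lower), and the G1 genes called higher from 3 to 6. The numbers called in the lists with each tumor left out ranged from 1 to 5 for CDK inhibitors, 3 to 8 for pocket, E2F and DP factors, 1 to 7 for regulators, 3 to 6 for inducers, 7 to 22 for S phase genes and 4 to 14 for G2/M genes. Thinning gave 3 of 9 tested pocket, E2F and DP factors, 1 of 14 regulators, 10 of 22 S phase genes and 4 of 12 G2/M genes. All of these were higher, beside 11.5% of all tested genes higher in that setting. At least 10 UMIs in every library gave 0 regulators, 2 inducers and 4 G2/M genes, a limit of 0.05 gave 11 S phase and 6 G2/M genes, and library size alone gave 6 regulators. Fewer UMIs, fewer samples, fewer genes or the stricter limit are part of these settings, and the cause was otherwise not tested. Library size alone moved the median log2 fold change by 0.16. Ccne2 rested on 4 to 8 UMIs in each LC tumor. The mean share of Ccne1 differed by 12.2 to 36.8 points with each tumor left out.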
